A study of Mus musculus with 6 samples.

Results

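The conjugating enzymes and aldo-keto reductases described here are 55 genes of mouse glomeruli: 15 UDP-glycosyltransferases (UGT), 20 soluble glutathione S-transferases (GST), 3 microsomal glutathione S-transferases (MGST), 7 sulfotransferases (SULT) and 10 aldo-keto reductases of family 1 (AKR1). They were taken by symbol (Ugt1 to Ugt3, Gst of the a, k, m, o, p, s, t and z classes, Mgst, Sult1 to Sult6 and Akr1a, c, d and e) and by level, with at least 10 counts in at least 3 libraries, from 57132 gene rows. Of 78 gene rows with such a symbol that were not pseudogenes, 23 fell short of the level, and 13 of those had 0 counts in every library. All 55 were among the 19927 genes tested. Only Ugt2b35 and Mgst2 reached 10 counts in fewer than 6 libraries, and Ugt2b35 did so through the 3 Cre_negative libraries alone, so that it had to be high there to be taken. Just outside the level stood Gstp3, with 25, 17 and 8 counts in Cre_negative and 0, 6 and 9 in Cre_positive libraries. Just inside stood Ugt2b35, with 30, 102 and 23 against 0, 6 and 4 counts.

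RNA was sequenced from glomeruli, the filtering tufts of the kidney, of mice labelled as having diabetic kidney disease (DKD). All 6 samples carried floxed Setdb2 alleles (Setdb2fl/fl), and 3 lacked Cre recombinase (Cre-/Setdb2fl/fl, here Cre_negative) while 3 carried it (Cre+/Setdb2fl/fl, here Cre_positive). SETDB2 is a putative histone methyltransferase, and per the series' design text its part in podocytes, the cells that wrap the capillaries of the filter, was the question. The sources used here do not give the diabetes model, the cells in which Cre acts, or the strain, age and sex of the animals. There was no group without DKD and no Cre+ group without floxed alleles among the samples used here. Whether each replicate was a different mouse is not stated, and the p-values therefore reflect only the spread among the 6 samples, which may be technical.

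Conjugating enzymes join a polar group to drugs, steroids, bilirubin, bile acids or reactive lipids so that they can be exported. UGTs of the endoplasmic reticulum add a sugar, mostly glucuronic acid, GSTs add glutathione to electrophiles, and SULTs add sulfate. Aldo-keto reductases reduce aldehydes and ketones with NADPH, and the AKR1C enzymes act on steroids as hydroxysteroid dehydrogenases. In kidney the proximal tubule is a major site of these enzymes, and many of them are known targets of the oxidant sensor NRF2.

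The libraries held 53571438 to 58807042 counts, of which the 55 genes took 0.680% to 0.925%. Setdb2 itself stood at 9.73, 8.80 and 6.58 CPM (read counts scaled to library size with TMM factors) in Cre_negative and at 8.01, 7.79 and 7.29 in Cre_positive libraries, a log2 fold change of -0.12 (two-sided exact permutation p = 0.6, smallest possible 0.1). The groups overlapped, so the level of the whole gene did not separate the genotypes. Podocyte markers were present, with summed levels of 1163 to 1239 CPM without Cre and 1686 to 1776 CPM with it. Proximal tubule markers summed to 18457 to 23320 and 23268 to 26054 CPM, so tubule RNA was present in both groups. Xist had 24 counts in Cre_positive replicate 2 and 36474 to 47632 in the other libraries, while the Y-linked genes Ddx3y, Eif2s3y, Kdm5d and Uty had 0 counts in all 6. Kap, an androgen-regulated tubule gene, stood at 138 to 448 CPM without Cre and 5582 to 6818 CPM with it.

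Of the 55 genes, 10 differed between genotypes in edgeR's quasi-likelihood test (adjusted p under 0.05 by Benjamini-Hochberg, taken over all genes). That was 18.2% of the genes, against 7.55% of all genes tested (1505 genes). In Cre_positive libraries 8 fell (14.5%, against 3.82% of all genes): Ugt2b37, Ugt2b35, Ugt2b5, Akr1c12, Akr1c13, Akr1e1, Gstp1 and Mgst1. Ugt2b35 is among them, and the choice by level favoured it. The other 2, Akr1c19 and Sult1c2, rose (3.64%, against 3.73% of all genes). The median log2 fold change was -0.23 over the 55 genes and -0.00089 over all genes. DESeq2 called 21 of the 55 (4 higher and 17 lower) and 2697 of all 19927 (1267 higher and 1430 lower). How many of all genes passed an unadjusted p under 0.05 was not counted, so the counts below at that level lack this comparison. In 28 of the 55 (50.9%) the genotypes did not overlap, against 29.7% of all genes. In 9 of them the Cre_positive libraries were higher and in 19 lower, against 15.2% and 14.5% of all genes. The 9 include near ties such as Ugt1a10, with the nearest libraries at 256.9 and 257.3 CPM, and Gstm7, at 11.85 and 11.97 CPM. Likewise the 19 include Mgst3, with the nearest libraries at 106 and 105 CPM. With tissue from many cells, fewer cells of a type and less RNA per cell cannot be told apart.

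**Figure D1:**
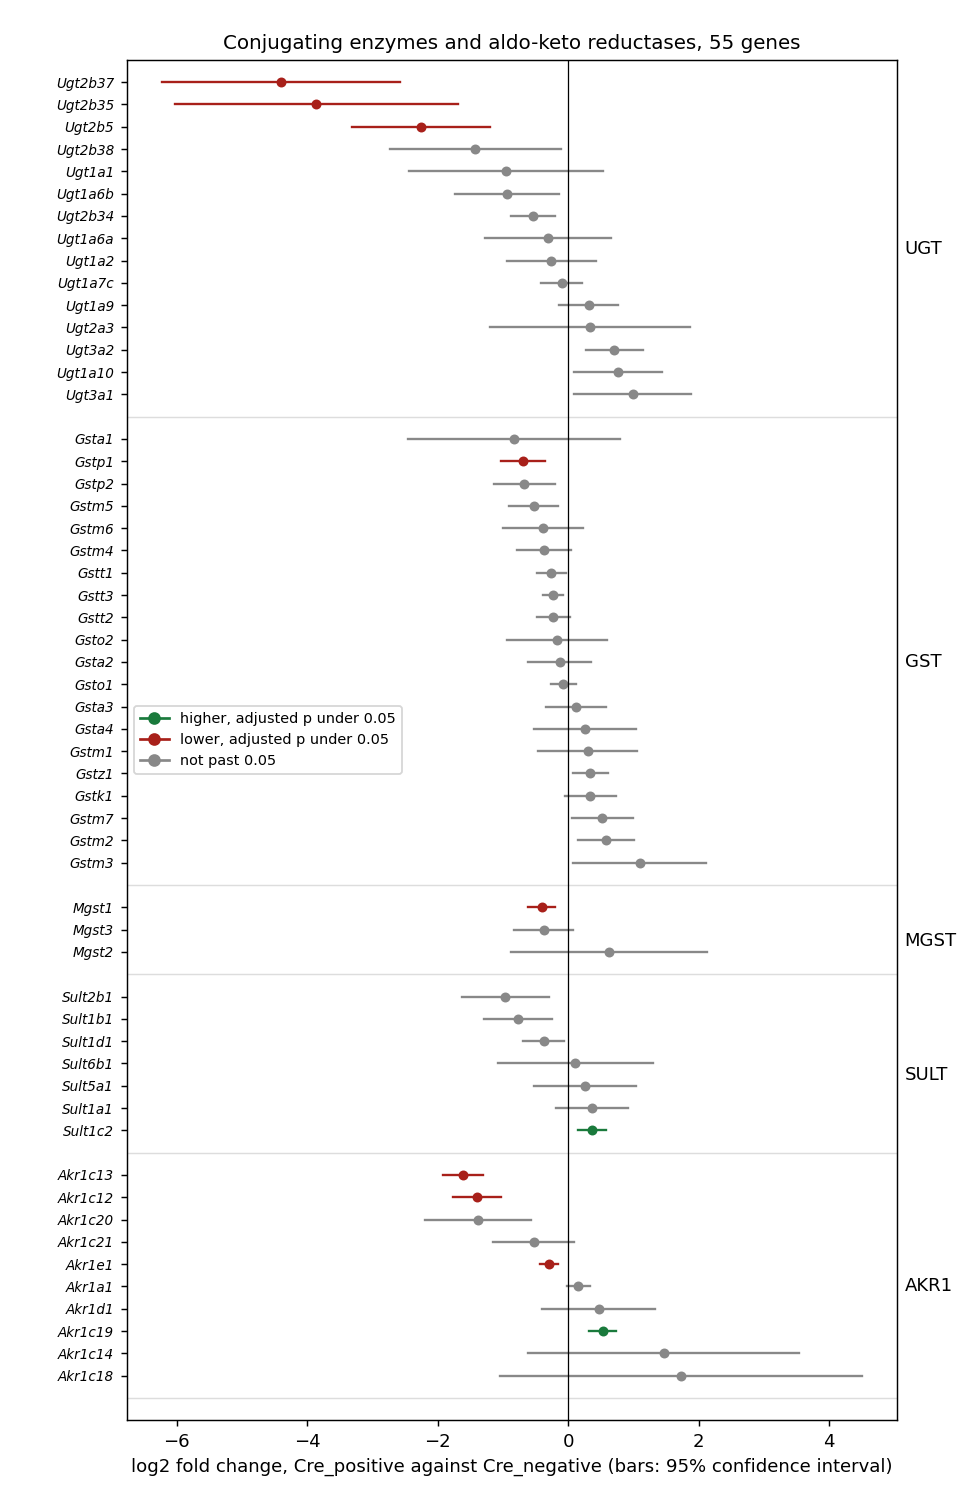
Log2 fold change of each of the 55 genes, Cre_positive against Cre_negative (horizontal axis), by family, with 95% confidence intervals as bars. The 8 lower genes past the threshold lie between -4.41 for Ugt2b37 and -0.29 for Akr1e1, and the 2 higher ones at 0.37 for Sult1c2 and 0.53 for Akr1c19.

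The 3 genes whose calls held when any library was left out, Akr1c12, Akr1c13 and Akr1c19, lie beside each other in the Akr1c cluster of chromosome 13. The start regions of these genes, and of Ugt2b37 and Ugt2b5 of chromosome 5, are shown because Akr1c12 and Akr1c13, and likewise Ugt2b37 and Ugt2b5, are close copies that moved in the same direction, while Akr1c19 moved in the opposite one. Each runs from 250 bases before to 50 bases after the start of the gene (RefSeq, GRCm38.p6, gene strand, 5′ to 3′). In the first pair and the last pair, capitals mark bases that differ from the other gene of the pair, and in Akr1c19 they mark the core of an antioxidant response element.
Akr1c12 (chr13:4279350-4279649, minus strand): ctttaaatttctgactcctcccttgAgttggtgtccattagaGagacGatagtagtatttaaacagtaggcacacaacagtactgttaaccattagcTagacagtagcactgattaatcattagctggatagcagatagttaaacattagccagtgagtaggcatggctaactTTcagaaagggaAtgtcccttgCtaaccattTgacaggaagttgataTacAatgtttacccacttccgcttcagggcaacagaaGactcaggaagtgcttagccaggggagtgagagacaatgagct
Akr1c13 (chr13:4190937-4191236, plus strand): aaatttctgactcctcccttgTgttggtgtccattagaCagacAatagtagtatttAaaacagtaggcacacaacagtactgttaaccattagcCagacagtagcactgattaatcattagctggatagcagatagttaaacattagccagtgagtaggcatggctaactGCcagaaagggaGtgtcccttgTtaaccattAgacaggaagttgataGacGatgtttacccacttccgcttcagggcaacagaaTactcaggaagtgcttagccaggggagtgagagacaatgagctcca
Akr1c19 (chr13:4233490-4233789, plus strand): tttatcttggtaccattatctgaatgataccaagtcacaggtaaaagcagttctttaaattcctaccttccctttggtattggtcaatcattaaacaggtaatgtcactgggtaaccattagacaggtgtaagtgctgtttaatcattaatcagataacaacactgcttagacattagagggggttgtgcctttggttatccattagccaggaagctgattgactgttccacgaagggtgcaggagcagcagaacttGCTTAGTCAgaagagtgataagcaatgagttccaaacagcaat
Ugt2b37 (chr5:87254739-87255038, minus strand): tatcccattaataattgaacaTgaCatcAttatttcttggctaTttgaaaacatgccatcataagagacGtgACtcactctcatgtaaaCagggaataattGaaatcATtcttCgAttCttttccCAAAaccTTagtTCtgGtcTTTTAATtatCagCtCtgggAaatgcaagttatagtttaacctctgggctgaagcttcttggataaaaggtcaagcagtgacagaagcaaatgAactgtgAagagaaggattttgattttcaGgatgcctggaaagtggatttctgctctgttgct
Ugt2b5 (chr5:87140291-87140590, minus strand): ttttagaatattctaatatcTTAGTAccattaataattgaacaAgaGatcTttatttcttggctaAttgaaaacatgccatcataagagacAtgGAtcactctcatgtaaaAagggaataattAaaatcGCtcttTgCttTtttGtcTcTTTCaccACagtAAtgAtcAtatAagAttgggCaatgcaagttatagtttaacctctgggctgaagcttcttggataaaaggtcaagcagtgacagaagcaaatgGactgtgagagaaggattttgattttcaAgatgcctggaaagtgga
The Akr1c12 and Akr1c13 windows were identical at 95.6% of 297 aligned positions, and their coding sequences at 96.2%. The Akr1c19 window matched those of Akr1c12 and Akr1c13 at 55% and 61.0%, and windows of Akr1c and Ugt2b genes matched each other at 45.1% to 48.6%. Ugt2b37 and Ugt2b5 matched at 84.6% of 292 aligned positions.

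Among the UGTs, 3 of 15 fell and 0 rose, where 3.82% and 3.73% of all genes did (at an unadjusted p under 0.05, 6 were lower and 3 higher, and DESeq2 called 5 lower and 1 higher). All 3 that fell were Ugt2b genes, enzymes that glucuronidate steroids and foreign compounds. Ugt2b37 stood at 19.3, 6.84 and 3.93 CPM without Cre and at 0.788, 0.369 and 0.261 CPM with it. The groups did not overlap, and Cre_negative replicate 1 was the highest by far. The log2 fold change was -4.41 (SE 0.76, adjusted p = 0.0215), and -3.50 without that library. The call was lost when a Cre_positive library, whichever it was, was left out (adjusted p up to 0.0994).

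Ugt2b5 stood at 16.5, 10.0025 and 7.16 CPM without Cre and at 1.26, 2.14 and 3.65 CPM with it. Again the groups did not overlap, and its log2 fold change was -2.26 (SE 0.45, adjusted p = 0.0276). Without Cre_negative replicate 2, Cre_positive replicate 1 or Cre_positive replicate 2 it missed the threshold (adjusted p up to 0.116). Ugt2b35 was near the limit of detection, at 0.494, 1.83 and 0.409 CPM against 0, 0.105 and 0.0745 CPM. Its log2 fold change of -3.86 (SE 0.95, adjusted p = 0.0449) passed without Cre_negative replicate 3 but missed the threshold without any of the other 5 libraries (adjusted p up to 0.166). The value was -2.86 without Cre_negative replicate 2 and -4.52 without Cre_positive replicate 2.

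Ugt2b38, the closest relative of Ugt2b5 at 97.0% of coding bases, was more abundant per kilobase of exon, at 25.6 against 3.65 CPM per kb. It stood at 89.9, 64.9 and 56.5 CPM without Cre and 11.2, 26.2 and 41.4 CPM with it. No Cre_positive library reached the lowest Cre_negative one, but the 3 spread widely and the log2 fold change of -1.42 (SE 0.51) did not pass (adjusted p = 0.185). Ugt2b34 had 80.7 to 116 CPM without Cre and 58.6 to 76.2 CPM with it, a log2 fold change of -0.55 (adjusted p = 0.0634). Ugt2a3, the last of the Ugt2 genes, stayed under 1 CPM and overlapped. Summed over the 6 Ugt2 genes, the level was 193 ± 41.1 CPM without Cre and 98.1 ± 20.6 CPM with it (mean ± SD, n = 3 each). Most of this sum came from Ugt2b34 and Ugt2b38, which did not pass, and not from the called genes. Ugt2b5 and Ugt2b38 share 19.5% and 19.2% of their 150-base exon windows with another gene, so some of their counts may be assigned to the wrong copy.

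The Ugt3a genes lay the other way, although neither passed. Mouse Ugt3a1 and Ugt3a2 are relatives of human enzymes that transfer sugars other than glucuronic acid. Ugt3a2 stood at 426, 529 and 755 CPM without Cre and at 890.4, 923 and 978 CPM with it (log2 fold change 0.71, SE 0.19, adjusted p = 0.0675). Ugt3a1 stood at 46.6, 79.3 and 98.1 CPM against 100.1, 154 and 191 CPM (log2 fold change 0.99, SE 0.36, adjusted p = 0.178). In both genes every Cre_positive library was above every Cre_negative one, though for Ugt3a1 the nearest libraries differed little.

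**Figure D2:**
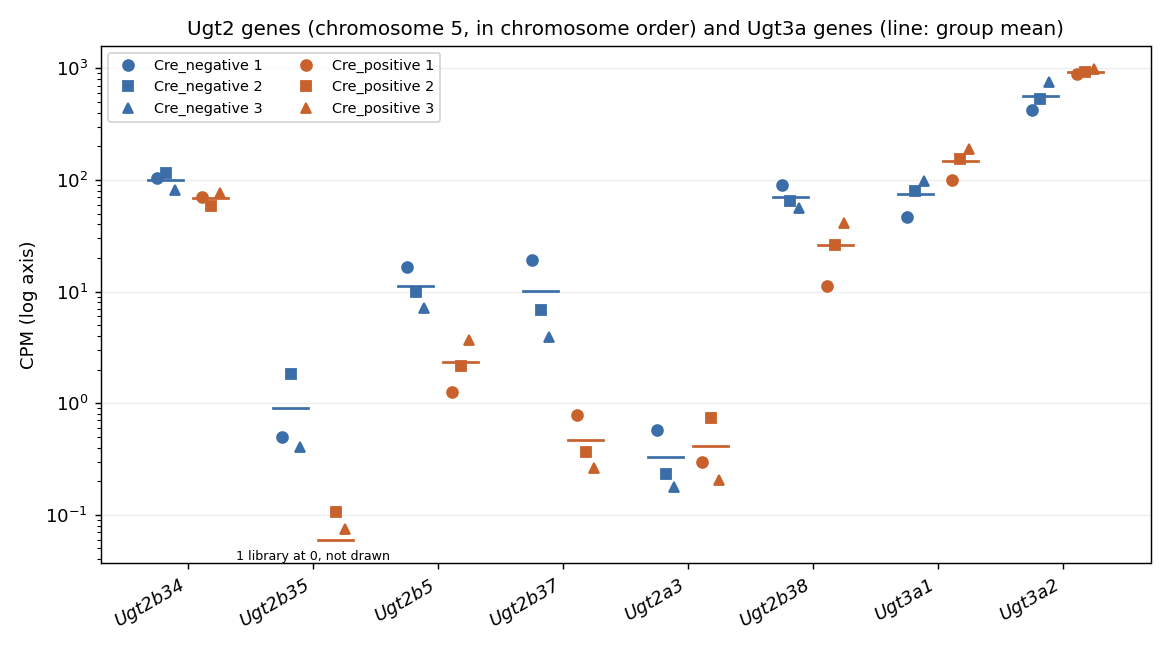
CPM (log axis) of the 6 Ugt2 genes and the 2 Ugt3a genes in each library, with a line at each group mean. Ugt2b37 lies at 3.93 to 19.3 CPM in the Cre_negative group and at 0.261 to 0.788 CPM in the other, while the Cre_positive libraries lie above for both Ugt3a genes, which did not pass the test.

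The Ugt1a genes share their last exons and differ in the first, so a read of the shared part does not tell them apart, and 56% to 100% of their exon windows were shared with another gene. The annotation also has a gene, Gm20528, antisense to them. None of the 7 passed (1 higher and 1 lower at an unadjusted p under 0.05, 0 by DESeq2). Per kilobase of exon, Ugt1a2 was the most abundant of all 55 genes, at 543 CPM per kb. It stood at 1009, 1984 and 935 CPM without Cre and 1121, 1109 and 1044 CPM with it, so that Cre_negative replicate 2 alone stood apart. The log2 fold change of -0.26 (95% interval -0.95 to 0.42, adjusted p = 0.646) turned to 0.16 without that library. Ugt1a1, the bilirubin-conjugating enzyme, showed the same library apart, with 77.2, 248.8 and 86.9 CPM against 80.0, 89.2 and 44.1 CPM. Ugt1a10 stood at 135, 184 and 257 CPM against 415, 305 and 257 CPM, a log2 fold change of 0.76 (adjusted p = 0.164). The other 4, Ugt1a6a, Ugt1a6b, Ugt1a7c and Ugt1a9, had log2 fold changes of -0.31, -0.94, -0.10 and 0.31, with overlap between the groups.

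Of the 20 soluble GSTs, 1 fell and 0 rose, where 3.82% and 3.73% of all genes did. At an unadjusted p under 0.05, 5 were lower and 4 higher, and DESeq2 called 4 lower and 1 higher. Gstp1, the pi-class enzyme that detoxifies electrophiles, stood at 114, 159 and 113 CPM without Cre and at 70.3, 82.0 and 85.6 CPM with it. The groups were separate and the log2 fold change was -0.70 (SE 0.14, adjusted p = 0.0268), but the call was lost whichever Cre_positive library was left out (adjusted p up to 0.0924). Gstp2, its neighbour with 98.1% of coding bases identical, stood at 14.6, 21.7 and 12.7 CPM against 10.2, 11.7 and 8.98 CPM. Its log2 fold change of -0.67 (adjusted p = 0.0885) did not pass, and 49.4% of its exon windows occur in another gene, as do 41.8% of those of Gstp1, so their counts may be mixed.

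The theta class, which also handles small halogenated compounds, moved little. Gstt3 stood at 83.5, 81.5 and 76.5 CPM against 67.0, 69.9 and 68.3 CPM (log2 fold change -0.24, SE 0.066, adjusted p = 0.0678). Gstt1 (-0.26, adjusted p = 0.152) and Gstt2 (-0.23, adjusted p = 0.253) had similar values and did not pass. Among the mu-class genes, Gstm5 was at 74.7 to 122 CPM against 63.2 to 70.3 CPM (log2 fold change -0.53, adjusted p = 0.0958). Gstm2 lay the other way, at 38.2 to 58.9 CPM against 66.2 to 88.9 CPM (0.58, adjusted p = 0.107).

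Gstm1, the most abundant GST per kilobase at 360.0 CPM per kb, stood at 311, 679 and 437 CPM without Cre and 478, 742 and 535 CPM with it. The ranges overlapped, and the interval of the log2 fold change (0.30, adjusted p = 0.633) ran from -0.46 to 1.06. The 4 alpha-class genes overlapped as well. Gsta2 was at 335, 574 and 340.4 CPM against 385, 369 and 385 CPM, and Gsta4, which conjugates the lipid aldehyde hydroxynonenal, at 80.1, 167 and 93.0 CPM against 155, 146 and 106 CPM. In Gsta1, Gsta2 and Gsta4 Cre_negative replicate 2 was the highest of the 6 libraries. Other genes hold 73.7% of the exon windows of Gsta1 and 26.8% of those of Gsta2, so these counts may be mixed. Gstz1, the isomerase of tyrosine breakdown, had every Cre_positive library (248 to 264 CPM) above every Cre_negative one (164 to 227 CPM) without passing (log2 fold change 0.33, adjusted p = 0.13). The 9 GSTs not yet described had log2 fold changes from -0.83 for Gsta1 (16.4, 54.3 and 12.0 CPM against 16.5, 17.5 and 12.5 CPM) to 1.09 for Gstm3 (0.494, 0.984 and 1.07 CPM against 0.900, 2.18 and 2.35 CPM), neither of which passed. Between them lay Gsta3 (0.12), Gstk1 (0.34), Gstm4 (-0.38), Gstm6 (-0.38), Gstm7 (0.52), Gsto1 (-0.07) and Gsto2 (-0.17). Of these 9, Gstm7 alone had separate groups, at 6.57, 8.73 and 11.9 CPM against 12.0, 13.99 and 13.1 CPM.

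Mgst1, a glutathione transferase and peroxidase of the endoplasmic reticulum and mitochondria, stood at 94.7, 112 and 110.4 CPM without Cre and at 72.8, 81.7 and 84.8 CPM with it. The groups did not overlap, and the log2 fold change was -0.41 (SE 0.090, adjusted p = 0.0295). The call held without Cre_negative replicate 1 and was lost without any of the other 5 libraries (adjusted p up to 0.111). Mgst3, per kilobase the most abundant of the 3 at 104 CPM per kb, had 109, 171 and 106 CPM against 103, 105 and 88.3 CPM (log2 fold change -0.38, adjusted p = 0.288). Mgst2 stayed under 1 CPM in every library.

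Of the 7 sulfotransferases, 1 rose and 0 fell, where 3.73% and 3.82% of all genes did (1 higher and 3 lower at an unadjusted p under 0.05, and the same by DESeq2). Sult1c2, a cytosolic sulfotransferase, stood at 67.6, 54.1 and 58.1 CPM without Cre and at 78.2, 72.9 and 80.9 CPM with it. The groups were separate, and the log2 fold change was 0.37 (SE 0.093, adjusted p = 0.0485). It was the call nearest to the threshold. It passed without Cre_negative replicate 1, and missed the threshold without any of the other 5 libraries (adjusted p up to 0.179). It also missed with other scaling factors and, in edgeR, with robust=FALSE (adjusted p = 0.0566).

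Sult1d1, which sulfates catecholamines, was the most abundant sulfotransferase per kilobase, at 203 CPM per kb. It stood at 475, 678 and 538 CPM against 486, 396 and 424 CPM, so that Cre_positive replicate 1 lay inside the Cre_negative range (log2 fold change -0.37, 95% interval -0.69 to -0.06, adjusted p = 0.146). Sult2b1, the cholesterol sulfotransferase, stood at 1.79 to 3.13 CPM against 1.18 to 1.47 CPM (-0.96, adjusted p = 0.0858), and Sult1b1, which acts on thyroid hormones and phenols, at 4.32 to 6.98 CPM against 2.94 to 3.47 CPM (-0.78, adjusted p = 0.0784). Neither overlapped between groups and neither passed. Sult1a1, the phenol sulfotransferase, Sult5a1 and Sult6b1 had log2 fold changes of 0.36, 0.26 and 0.11, with overlap.

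Of the 10 aldo-keto reductases, 3 fell and 1 rose, where 3.82% and 3.73% of all genes did. At an unadjusted p under 0.05, 4 were lower and 1 higher, and DESeq2 gave the same counts. The largest changes of the family past the threshold were in a near-identical pair. Akr1c13 stood at 18.6, 22.9 and 24.2 CPM without Cre and at 7.48, 6.78 and 7.25 CPM with it, and Akr1c12 at 9.29, 10.97 and 9.76 CPM against 4.11, 3.76 and 3.47 CPM. For both, every Cre_positive library was far below every Cre_negative one and the Cre_positive libraries were close to each other. The log2 fold change was -1.61 (SE 0.13, adjusted p = 0.000434) for Akr1c13 and -1.40 (SE 0.16, adjusted p = 0.00208) for Akr1c12. With any library left out, the adjusted p stayed at or under 0.00527 and 0.0190. The 2 genes share 7.10% of their 150-base exon windows, so over that length most of each gene can be told from the other. Shorter reads would tell them apart less often, and how multiply mapped reads were counted is not given.

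Akr1c19, which lies between them, went the other way. It stood at 41.6, 44.3 and 44.0 CPM without Cre and at 58.0, 58.9 and 70.3 CPM with it, without overlap. The log2 fold change was 0.53 (SE 0.090, adjusted p = 0.0116), and the adjusted p stayed at or under 0.0476 with any library left out. Akr1c20, in the same cluster, was low, at 2.80, 3.24 and 4.37 CPM against 1.14, 0.843 and 2.01 CPM. Its groups did not overlap, but it just missed the threshold (log2 fold change -1.38, SE 0.36, adjusted p = 0.0519).

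Akr1c21, a hydroxysteroid dehydrogenase and the most abundant of the cluster at 299 CPM per kb, did not pass. It stood at 514, 571 and 506 CPM without Cre and spread over 229.5, 371 and 501 CPM with it (log2 fold change -0.53, SE 0.26, adjusted p = 0.284). Akr1c14 and Akr1c18, which inactivate dihydrotestosterone and progesterone, spread even more. Akr1c14 had 16.9, 12.3 and 14.1 CPM against 7.78, 36.1 and 75.3 CPM, and Akr1c18 had 13.2, 3.40 and 9.51 CPM against 2.85, 42.7 and 41.1 CPM. In both, Cre_positive replicate 1 lay below all Cre_negative libraries and the other 2 Cre_positive libraries lay above all of them. The highest Cre_positive library was 9.67 times the lowest for Akr1c14 and 15.0 times for Akr1c18. Markers of the adrenal cortex, which makes steroids, summed to 8.52 to 11.7 CPM over 9 genes, with 4 of them high enough to be tested and Cyp11b1, Cyp11b2 and Nr5a1 at 0 counts in all 6 libraries. Their part in these values was not tested.

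**Figure D3:**
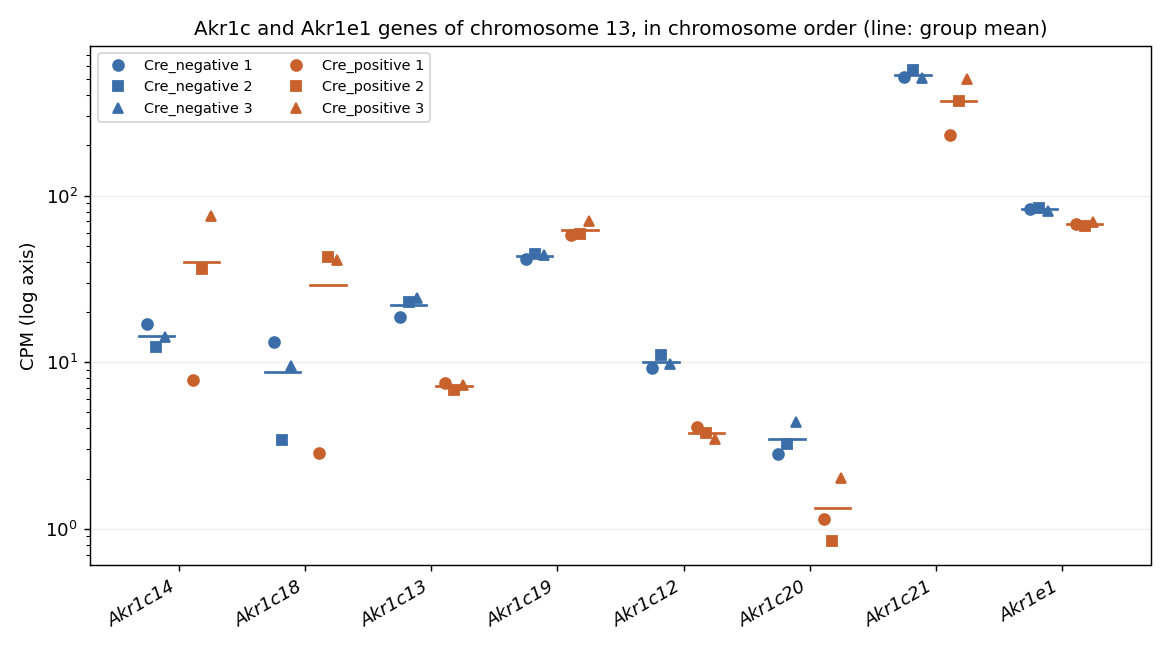
CPM (log axis) of the Akr1c genes and Akr1e1 of chromosome 13 in each library, in chromosome order, with a line at each group mean. Akr1c13 and Akr1c12 drop to 7.17 and 3.78 CPM on average in Cre_positive libraries, Akr1c19 between them rises to 62.4 CPM, and the Cre_positive libraries of Akr1c14 and Akr1c18 lie on both sides of the Cre_negative ones.

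Akr1e1, which reduces a sugar derivative, anhydrofructose, stood at 83.2, 84.2 and 81.0 CPM without Cre and at 67.4, 65.7 and 69.4 CPM with it. The spread within groups was small, and a log2 fold change of -0.29 (SE 0.063) passed (adjusted p = 0.0261). The call held without Cre_negative replicate 3 and was lost without any of the other 5 libraries (adjusted p up to 0.107). Akr1a1, which turns glucuronate into gulonate on the path to vitamin C, was the most abundant reductase, at 406 CPM per kb. It stood at 1041, 1084 and 1049.6 CPM against 1152, 1163 and 1211 CPM, without overlap, and its log2 fold change of 0.15 (95% interval -0.03 to 0.33, adjusted p = 0.285) did not pass. Akr1d1, the steroid reductase of bile acid synthesis, had 11.9, 15.9 and 19.0 CPM against 11.2, 24.4 and 28.9 CPM, with overlap (log2 fold change 0.47, adjusted p = 0.504).

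Summed by class, only some groups of genes separated the genotypes. The Ugt2 genes (148.8 to 230.05 CPM against 84.3 to 121.8 CPM), the Gstp genes (125.5 to 181 against 80.5 to 94.5 CPM), the Gstt genes and the Mgst genes were lower in every Cre_positive library. Most of the Ugt2 sum was Ugt2b34 and Ugt2b38, which did not pass. The Ugt3 genes were higher in every Cre_positive library, at 990.5 to 1169 CPM against 472 to 853 CPM. The Ugt1a, Gsta, Gstm, Sult1 and Akr1c sums overlapped. For Ugt1a and Gsta, Cre_negative replicate 2 was far above the other 5 libraries, and for Akr1c the Cre_positive libraries ran from 311 to 700.3 CPM.

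**Figure D4:**
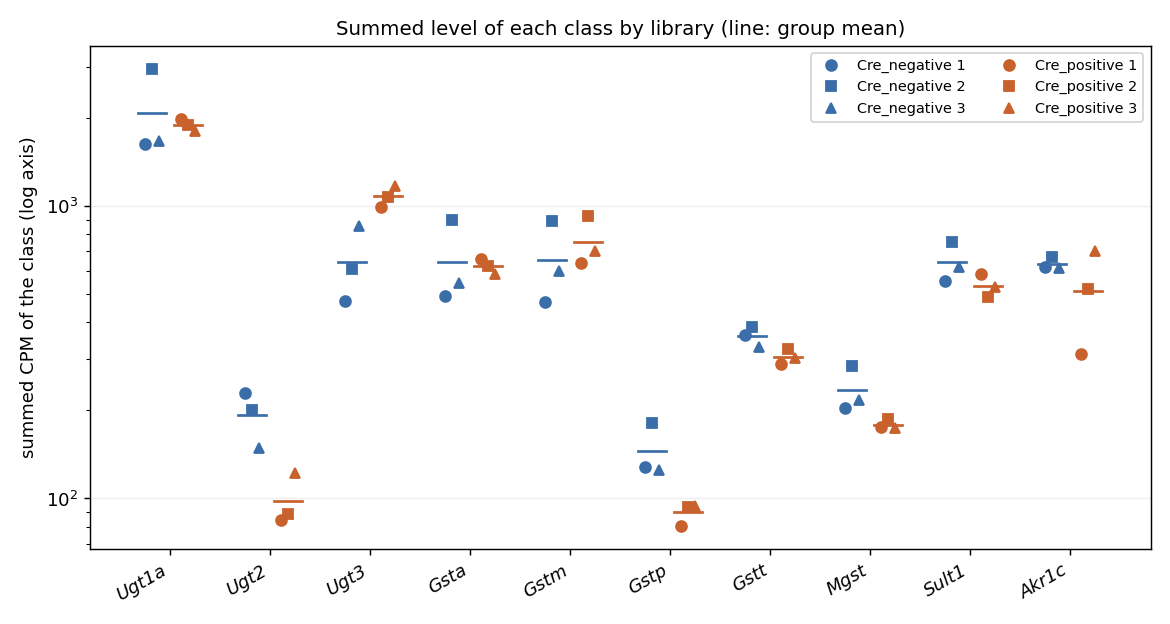
Summed CPM (log axis) of the genes of 10 classes in each library, with a line at each group mean. The Ugt2 sum is 193 ± 41.1 CPM without Cre and 98.1 ± 20.6 CPM with it (mean ± SD), the Ugt3 sum lies above in Cre_positive libraries, and Cre_negative replicate 2 stands alone for Ugt1a and Gsta.

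The promoter windows of 50 of the 55 genes were at hand. The antioxidant response element core TGACNNNGC, searched on both strands, occurred in 5 of the 50 (10%: Akr1c19, Gsta3, Gstm5, Gstm7 and Mgst1), against 13.99% of 27025 genes with a window. A match is a run of letters and does not show binding.

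**Figure D5:**
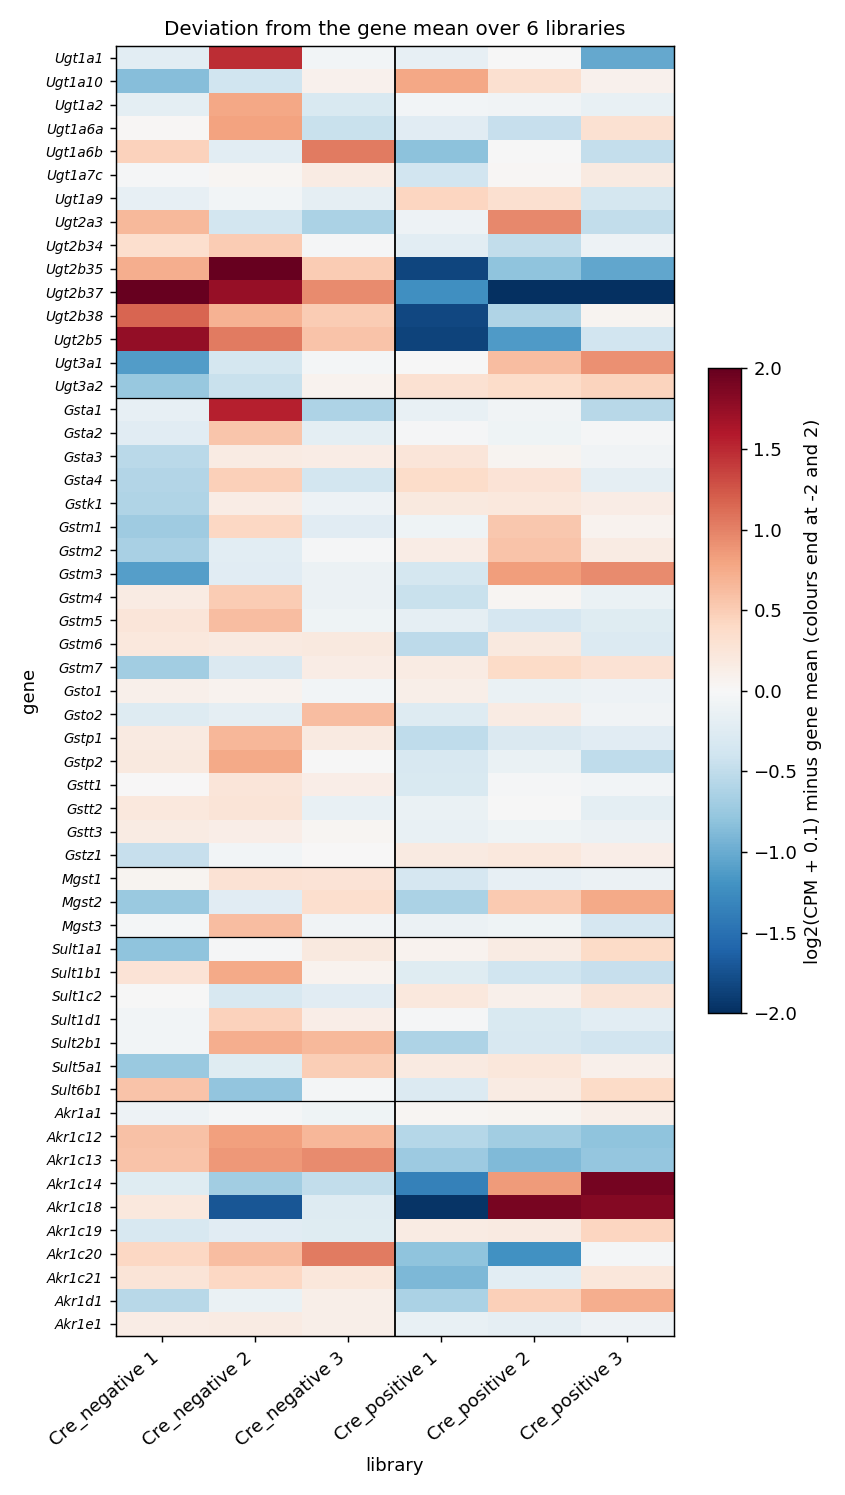
Log2(CPM + 0.1) of each of the 55 genes minus its mean over the 6 libraries (colour, ending at -2 and 2), with libraries in columns and families divided by lines. In Ugt1a1, Gsta1 and Ugt2b35 the cell of Cre_negative replicate 2 is the darkest red of its row, and Ugt2b35, Ugt2b37, Ugt2b38 and Ugt2b5 are red in all 3 Cre_negative columns.

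Of 27 genes for the supply or breakdown of the sugar, sulfate or glutathione of conjugation, 3 rose, 4 fell and 20 did not pass. Their median log2 fold change was -0.0022. Slc26a1, a sulfate carrier, rose from 67.3, 75.9 and 68.8 CPM to 145, 140.5 and 136 CPM (log2 fold change 0.99, adjusted p = 0.000203), Cbs, which makes cystathionine on the path to cysteine, rose by 0.96 (adjusted p = 0.00407), and Dpep1, a dipeptidase of glutathione breakdown, by 0.68 (adjusted p = 0.00214). Gclc, the catalytic subunit of the rate-limiting step of glutathione synthesis, stood at 281, 247 and 255 CPM against 198, 191 and 197 CPM. It was lower (log2 fold change -0.42, adjusted p = 0.0135, lost whichever Cre_positive library was left out), as were Oplah (-0.90), Cndp2 (-0.76) and Slc35b1 (-0.37). Of these last 3, only Oplah passed whichever library was left out.

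Among 21 other conjugating enzymes and enzymes that act beside them, such as epoxide hydrolases, 2 rose and 3 fell. Ephx1, the microsomal epoxide hydrolase that often acts beside GSTs, stood at 295, 306 and 358 CPM without Cre and at 57.7, 66.6 and 57.0 CPM with it. The groups lay far apart (log2 fold change -2.40, SE 0.10, adjusted p = 1.05e-05). Nat8f2, of the N-acetyltransferase family, fell by 1.94 on the log2 scale (adjusted p = 0.00951, lost without Cre_positive replicate 2), and Acsm1, of the acyl-CoA synthetases that precede glycine conjugation, rose by 0.59 (adjusted p = 0.0124, lost without Cre_positive replicate 2 or 3).

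Of 24 other carbonyl and aldehyde enzymes, 3 fell and 0 rose (5 lower and 1 higher at an unadjusted p under 0.05, and 5 and 0 by DESeq2). Aldh1a1, a retinaldehyde dehydrogenase, stood at 33.8, 61.1 and 29.1 CPM against 2.36, 4.11 and 3.86 CPM. Its close relative Aldh1a7 stood at 23.6, 34.8 and 20.6 CPM against 2.53, 2.35 and 3.00 CPM. Akr1b8, an aldo-keto reductase of the AKR1B group, which the choice by symbol left out, stood at 19.8, 10.8 and 7.18 CPM against 1.28, 1.91 and 1.98 CPM. All 3 were lower without overlap, by log2 fold changes of -3.58, -3.32 and -2.87 (adjusted p = 0.00405, 0.000146 and 0.00658). Of 17 other proteins with a GST fold or of the MAPEG family of membrane enzymes, 2 fell and 0 rose (7 lower and 2 higher at an unadjusted p under 0.05, and 3 and 0 by DESeq2). Ltc4s, the leukotriene synthase related to Mgst2, went from 15.0, 14.4 and 14.2 CPM to 3.24, 3.88 and 3.71 CPM (log2 fold change -2.01, adjusted p = 0.000185). Clic1, a chloride channel protein with a GST fold, fell by 0.63 on the log2 scale (adjusted p = 0.00895, lost without Cre_positive replicate 3).

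Of 21 genes of the NRF2 axis, 9 fell and 0 rose (10 lower and 1 higher at an unadjusted p under 0.05, and the same counts by DESeq2), with a median log2 fold change of -0.29. Gclc, already counted above among the supply and breakdown genes, is among these 9. Nfe2l2, which encodes NRF2, stood at 220.0, 233 and 247 CPM against 158, 144 and 151 CPM (log2 fold change -0.63, SE 0.074, adjusted p = 0.00230). Hmox1, a heme oxygenase, and G6pdx, the first enzyme of the pentose phosphate path, fell by 0.91 and 0.64 on the log2 scale (adjusted p = 0.00351 and 0.00401). Nqo1, a quinone reductase and known target, did not pass, with a log2 fold change of -0.19 (adjusted p = 0.62), nor did Gclm, the partner subunit of Gclc, with 0.10 (adjusted p = 0.482).

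Of 17 regulators of conjugating enzymes, 2 rose and 1 fell. Esr1, the estrogen receptor, went from 10.3, 5.96 and 12.5 CPM to 21.5, 22.4 and 21.2 CPM (log2 fold change 1.17, adjusted p = 0.0254), while Cebpb, a transcription factor of the acute-phase response, fell by 0.65 on the log2 scale (adjusted p = 0.0277). Both calls were lost whichever Cre_positive library was left out, that of Esr1 also without Cre_negative replicate 1 and that of Cebpb without Cre_negative replicate 2. Of 17 carriers that move conjugates, 2 rose and 0 fell (4 higher and 3 lower at an unadjusted p under 0.05, and 4 and 1 by DESeq2): Abcc3 by 1.12 (adjusted p = 0.0380, lost without Cre_negative replicate 1 or 2 or Cre_positive replicate 1 or 2) and Abcc6 by 0.73 (adjusted p = 0.0305, lost without any library but Cre_negative replicate 3). Of 9 deconjugating enzymes, 1 rose, the sulfatase Arsi, by 4.02 (4.797 without Cre_negative replicate 1, adjusted p = 0.0180, lost without Cre_negative replicate 3 or Cre_positive replicate 2 or 3), and 0 fell (0 lower at an unadjusted p under 0.05 and by DESeq2).

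Cell type markers and sex-biased genes moved between the same groups. Of 24 proximal tubule markers, 9 rose and 0 fell (14 higher and 2 lower at an unadjusted p under 0.05, and 13 and 2 by DESeq2), with a median log2 fold change of 0.40, whereas the median of the 55 genes was -0.23. Dpep1 and Acsm1, described above in other lists, are among these 9. Of 18 podocyte markers, 8 rose and 0 fell (13 higher and 0 lower at an unadjusted p under 0.05, and 11 and 0 by DESeq2). Of 14 markers of injured epithelium, 7 fell and 0 rose (13 lower and 0 higher at an unadjusted p under 0.05, and 12 and 0 by DESeq2). Their summed level was 4707 to 12976 CPM in Cre_negative, highest in replicate 1, and 2232 to 2478 CPM in Cre_positive libraries. Of 14 macrophage markers, 2 fell and 0 rose (9 lower and 0 higher at an unadjusted p under 0.05, and 8 and 0 by DESeq2). Endothelial (9 of 14 higher), mesangial (4 of 12 higher, 1 lower) and distal tubule markers (6 of 15 higher) also moved, and the part of these shifts in the results above was not tested. Of male-biased kidney genes, Kap rose and Cyp2j13 fell (lost without Cre_positive replicate 2) among 6 tested, and Abcc3 rose among 5 female-biased ones. Hepatocyte markers did not pass in any of 6 genes tested by edgeR (1 higher and 1 lower at an unadjusted p under 0.05 and by DESeq2), with Mup3 at 0 counts in all libraries. Nor did 7 urothelium and 4 adrenal markers (0 at an unadjusted p under 0.05 and by DESeq2).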

How the data were processed

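Polyadenylated RNA of 3 Cre_negative and 3 Cre_positive glomerular samples was sequenced as read pairs from dUTP-marked libraries, per the labels' protocols. Read counts per Ensembl gene, as whole numbers, were deposited by the authors in 1 table. The tools edgeR, fastp, HISAT2 and StringTie and the build GRCm39 are listed per the submitters' processing notes. The annotation, the strand setting and how multiply mapped reads were counted are not given in the sources used, so near-identical genes are uncertain.

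Symbols were paired with 51880 of 57132 gene rows. The deposited counts were fitted in edgeR 4.0.16 under R 4.3.3 (filterByExpr, TMM factors of 0.979 to 1.03, quasi-likelihood test with robust=TRUE). The p-values were adjusted by Benjamini-Hochberg over the 19927 genes tested, and 0.05 was the threshold. SE is the size of the log2 fold change over the root of the F statistic. The biological coefficient of variation (root of the common dispersion) was 21.5%. CPM values carry the TMM factors, and CPM per kb divides them by exon length in GENCODE M21 (GRCm38), which also gave gene order and shared 150-base windows. Promoters came from RefSeq (GRCm38.p6). Settings tried were other scaling factors, DESeq2 1.42.0, limma voom (limma 3.58.1), robust=FALSE, other filters, a threshold of 0.1, a replicate block and each library left out. On simulated data the test recovered small changes less often than large ones, and its calls held more unchanged genes than the threshold allows.

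The 55 genes, the gene lists and the rule for named genes were chosen with earlier results of these data known. The rule took all genes of the 55 past the threshold, the most abundant per kb and the smallest p of each family, and up to 3 genes past the threshold per list. Other genes named, such as Akr1c14, Ugt2b38 and Ugt3a1, were chosen after their values were seen. Of 309 list genes, 307 were matched. A gene that the rule takes is not reported here.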

Additional observations from a re-analysis of the deposited data

How the results depend on the processing

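Genes past the threshold among all genes numbered 1505, 2697 with DESeq2, 2562 at a threshold of 0.1, and 462 to 2039 with a library left out. Among the 55 genes the counts were 10, 21, 18, and 3 to 16, with 3 without Cre_positive replicate 2, 4 without Cre_positive replicate 1, 5 without Cre_negative replicate 2 and 16 without Cre_negative replicate 3. Other scaling, robust=FALSE, voom and other filters gave 9 to 11. The median over the 55 genes stayed negative under each alternative. Setdb2 (-0.12) ran from -0.27 to 0.0024 with a library left out and turned without Cre_negative replicate 1, and Ugt1a2 (-0.26) ran from -0.45 to 0.16 and turned without Cre_negative replicate 2; the cause was not tested. With the replicate block, 13 of the 55 genes and 1541 genes in all passed, with the calls of Akr1e1 and Ugt2b5 lost and those of Akr1c20, Gstm2, Gstp2, Ugt3a1 and Ugt3a2 gained. The replicate numbers were not taken to pair the samples, as the labels do not state a pairing. Same-numbered libraries deviated together with correlations of 0.112, 0.101 and 0.0412, above those of all differently numbered pairs (-0.124 to 0.0394). These values do not settle whether the samples were paired. Ugt2b37 missed the threshold with no filter on low counts (adjusted p = 0.0502), and Ugt2b35, which had 0 to 6 counts in Cre_positive libraries, missed it with voom (adjusted p = 0.0533). Of 32 named genes past the threshold, 15 passed whichever library was left out.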

Other observations

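Cre_negative replicate 2 was the highest of the 6 libraries for 22 of the 55 genes (40%), against 18.4% of all genes tested. In 10 of the 55 (18.2%) it reached at least 1.5 times the mean of the other 2 Cre_negative libraries, against 6.79% of all genes, a pattern chosen after the values were seen. These were Ugt2b35 (4.04 times), Gsta1 (3.82 times), Ugt1a1 (3.03 times), Ugt1a2, Ugt1a6a, Gsta4, Gstm1, Gsta2, Gstp2 and Mgst3. Gm3776 and Gm10639, whose exons share sequence with Gsta1 and Gsta2, were highest in the same library, at 45.6 and 101.1 CPM, against 12.4 and 50.4 CPM or less in each of the others.

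Of the 23 genes of these families that fell short of the level, 13 had 0 counts in every library. The Sult2a genes, hydroxysteroid sulfotransferases, were all among them, as were Sult1c1, Sult3a1, Sult3a2, Ugt2b1 and Ugt2a2. Sult1e1, the estrogen sulfotransferase, had 3 counts in Cre_negative replicate 2 and 0 elsewhere. Ugt1a5 had 175 counts in Cre_negative replicate 2, 127 in Cre_positive replicate 1 and 0 to 3 in the other 4 libraries.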
